A study of Mus musculus with 8 samples.

Results

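The Iroquois homeobox genes Irx1 to Irx6 were followed in hearts of E10.5 mouse embryos that had lost both alleles of Kat6a. They are 6 of the 27179 genes in the deposited count table, and they were taken as a whole family, by gene ID. The family was chosen by its measured log2 fold changes between Kat6a KO and Kat6a WT hearts, several of which were below 0, so the members' differences between the genotypes are a description, and no p is given for any of them. All 6 had enough reads to pass the filter on low counts, as did 15086 genes in all. RNA came from whole E10.5 hearts: 3 hearts without either Kat6a allele (Kat6a KO) and 5 wild-type hearts (Kat6a WT), each sequenced as its own library from total RNA. The sources used here do not state the null allele, strain, litters, sex or somite stage.

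Irx proteins are transcription factors of the TALE class of homeodomain proteins, whose homeodomain carries extra residues between its first and second helix. They are named after the Iroquois genes that pattern the fly notum, and in mice they lie as a pair of gene clusters with widely spaced members. In the mouse heart they are known for regional expression in the ventricles, where they take part in the identity of ventricular muscle, in the conduction system and in the gradient of repolarisation. Kat6a, also called Moz, is a MYST-family histone acetyltransferase.

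Irx1, Irx2 and Irx4 lie on chromosome 13 of GRCm38.p6, the assembly behind mm10. Irx1 is at chr13:71958232-71963723 on the minus strand, Irx2 at chr13:72624430-72634196 and Irx4 at chr13:73259589-73269622, both on the plus strand. These members are 661 kb and 625 kb apart, and the cluster spans 1311 kb. Irx3, Irx5 and Irx6 lie on chromosome 8, with Irx3 at chr8:91798511-91801654 on the minus strand, Irx5 at chr8:92357796-92361456 and Irx6 at chr8:92674289-92680956 on the plus strand. Here the gaps are 556 kb and 313 kb and the span is 882 kb. Kat6a itself is at chr8:22859442-22943259, on the same chromosome as the Irx3, Irx5 and Irx6 cluster, and the sources used here do not state the strain of the DNA around the null allele.

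The members are alike in the homeobox, so reads from there are among those that could be taken for another member. The following 75 coding bases (25 codons, GENCODE M21 transcripts) cover the end of the homeobox, with capitals at the 10 positions that are not the same in all 6 genes.
Irx1: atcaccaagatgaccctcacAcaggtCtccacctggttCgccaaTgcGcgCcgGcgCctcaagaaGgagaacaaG
Irx2: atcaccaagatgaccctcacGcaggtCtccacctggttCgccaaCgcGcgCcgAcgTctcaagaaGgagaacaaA
Irx4: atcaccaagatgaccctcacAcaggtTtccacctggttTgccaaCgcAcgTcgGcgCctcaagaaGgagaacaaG
Irx3: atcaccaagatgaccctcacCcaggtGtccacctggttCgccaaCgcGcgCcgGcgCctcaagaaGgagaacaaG
Irx5: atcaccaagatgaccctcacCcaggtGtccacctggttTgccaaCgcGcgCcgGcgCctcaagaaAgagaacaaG
Irx6: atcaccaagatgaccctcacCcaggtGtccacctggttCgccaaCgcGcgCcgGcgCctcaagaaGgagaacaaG
All 10 of these positions are the last base of a codon, and each member encodes the same 25 residues, so the family differs here in its codons and not in its protein. Irx3 and Irx6 carry the same letters throughout, while the other pairs match over 89.3% to 97.3% of the window. The longest exact match between any pair of transcripts is also that of Irx3 and Irx6, 88 bases around this window. It is shown here because these genes, at the ends of the chromosome 8 cluster, had Kat6a KO means on opposite sides of the wild-type means.
Irx3 and Irx6 shared run: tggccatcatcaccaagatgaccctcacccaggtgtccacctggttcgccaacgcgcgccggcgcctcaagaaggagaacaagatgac
It makes up 3.37% of the Irx3 transcript and 2.61% of the Irx6 transcript. Over the 15 pairs the longest match ran from 23 to 88 bases, with 65 bases for Irx2 and Irx5 as the second longest. For 4 of the pairs, Irx3 with Irx5 (50 bases) among them, the longest match lay outside the window shown. The sources used here do not state the read length or the treatment of reads with several matches, so reads within these runs may have been shared or dropped. The antisense genes Irx3os and Gm45505 share 124 exon bases with Irx3 and 152 with Irx6. The strand setting of the counting is not given, so it is not known whether reads within these shared bases were told apart.

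The libraries held 19911803 to 34539787 counts, and an Irx gene had 203 to 3718 counts in a heart. No pair of libraries looked like a single library deposited again: over the 28 pairs, the chi-square of the counts was 8.25 to 30.5 per degree of freedom. Nothing in the labels says that the hearts came from separate litters, so p-values speak of the spread among these 8 hearts only. The sample descriptions number the 3 Kat6a KO libraries ahead of the 5 Kat6a WT libraries, and the labels do not say what these numbers mark. If they mark an order of preparation or sequencing, it cannot be told apart from genotype. Kat6a RNA was 133 to 141 CPM in Kat6a KO hearts and 138.5 to 156 CPM in Kat6a WT hearts, so the ranges overlap and this count does not check the labels. Kat6a WT replicates 4 and 5 held Xist RNA at 305.9 and 300.3 CPM, and no other heart exceeded 0.372 CPM. Sex, as read from Xist RNA, was therefore not balanced between the genotypes. Marker genes of heart muscle summed to 13660 to 14760 CPM in Kat6a KO and 12990 to 14420 CPM in Kat6a WT hearts, those of foregut endoderm to at most 1.96 CPM in any heart, and the skeletal muscle gene Myf5 was at 0 in all 8.

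In the chromosome 13 cluster, Irx1 and Irx4 were lower in every Kat6a KO heart than in any Kat6a WT heart, and Irx2 was not. Irx1, which is transcribed in the ventricular septum of the mouse embryo, had 16.4, 21.0 and 19.8 CPM (counts per 1000000 counts of the scaled library) in Kat6a KO replicates 1 to 3, against 28.1, 27.1, 22.1, 26.6 and 25.1 CPM in Kat6a WT replicates 1 to 5. The groups did not overlap, but Kat6a KO replicate 2 and Kat6a WT replicate 3 lay close to each other. Irx1 averaged 19.1 ± 2.39 CPM in Kat6a KO and 25.8 ± 2.33 CPM in Kat6a WT hearts (SD, n = 3 and 5), a log2 fold change of -0.44 ± 0.10 (SE). Irx2, also found in the septum, had 27.3, 26.3 and 30.6 CPM in Kat6a KO hearts, against 36.1, 32.4, 31.6, 26.1 and 31.5 CPM in Kat6a WT hearts. Kat6a WT replicate 4 was the lowest heart of all for Irx2, so the groups overlapped. The means for Irx2 were 28.1 ± 2.26 CPM in Kat6a KO and 31.6 ± 3.56 CPM in Kat6a WT hearts, with a log2 fold change of -0.17 ± 0.09.

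Irx4, a regulator of ventricular muscle identity whose RNA is found mainly in the ventricles of the mouse heart, had 85.8, 88.3 and 92.9 CPM in Kat6a KO hearts, against 120.1, 106, 108, 96.7 and 97.7 CPM in Kat6a WT hearts. The groups did not overlap, and the Kat6a WT hearts were spread more widely, with replicate 1 highest and replicates 4 and 5 nearest to the Kat6a KO hearts. Irx4 averaged 89.0 ± 3.60 CPM in Kat6a KO and 106 ± 9.45 CPM in Kat6a WT hearts, a log2 fold change of -0.25 ± 0.06.

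In the chromosome 8 cluster, Irx3 and Irx5 were lower and Irx6 was the member with a higher mean in Kat6a KO hearts. Irx3, which is known from the trabecular layer and later the fast conduction fibres of the ventricles, had 28.0, 29.6 and 30.1 CPM in Kat6a KO hearts, against 39.4, 45.0, 40.2, 37.9 and 37.8 CPM in Kat6a WT hearts. The 3 Kat6a KO hearts lay together and well below the lowest Kat6a WT heart. Irx3 averaged 29.3 ± 1.08 CPM in Kat6a KO and 40.1 ± 2.94 CPM in Kat6a WT hearts, a log2 fold change of -0.45 ± 0.07. Irx5, which is transcribed in the endocardium of the embryo and represses the potassium channel gene Kcnd2 in adult ventricular muscle, had 29.3, 29.9 and 28.5 CPM in Kat6a KO hearts, against 37.2, 35.2, 39.9, 42.4 and 38.5 CPM in Kat6a WT hearts. Again the groups were apart, and the Kat6a KO hearts varied least for this member, with a coefficient of variation of 2.35% against 7.05% among Kat6a WT hearts. The Kat6a KO hearts had 588 to 876 Irx5 counts, where counting alone gives a spread, and this difference in variation was not tested. Irx5 averaged 29.2 ± 0.688 CPM in Kat6a KO and 38.6 ± 2.73 CPM in Kat6a WT hearts, a log2 fold change of -0.40 ± 0.07.

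Irx6, the last gene of this cluster, had 12.0, 15.9 and 13.2 CPM in Kat6a KO hearts, against 10.3, 9.72, 12.2, 13.0 and 10.4 CPM in Kat6a WT hearts. Its groups overlapped: Kat6a KO replicate 1 lay below Kat6a WT replicates 3 and 4. Irx6 averaged 13.7 ± 1.99 CPM in Kat6a KO and 11.1 ± 1.42 CPM in Kat6a WT hearts, a log2 fold change of 0.29 ± 0.12. It had the fewest reads of the family, 293 to 358 in Kat6a KO and 203 to 422 in Kat6a WT hearts.

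**Figure D1:**
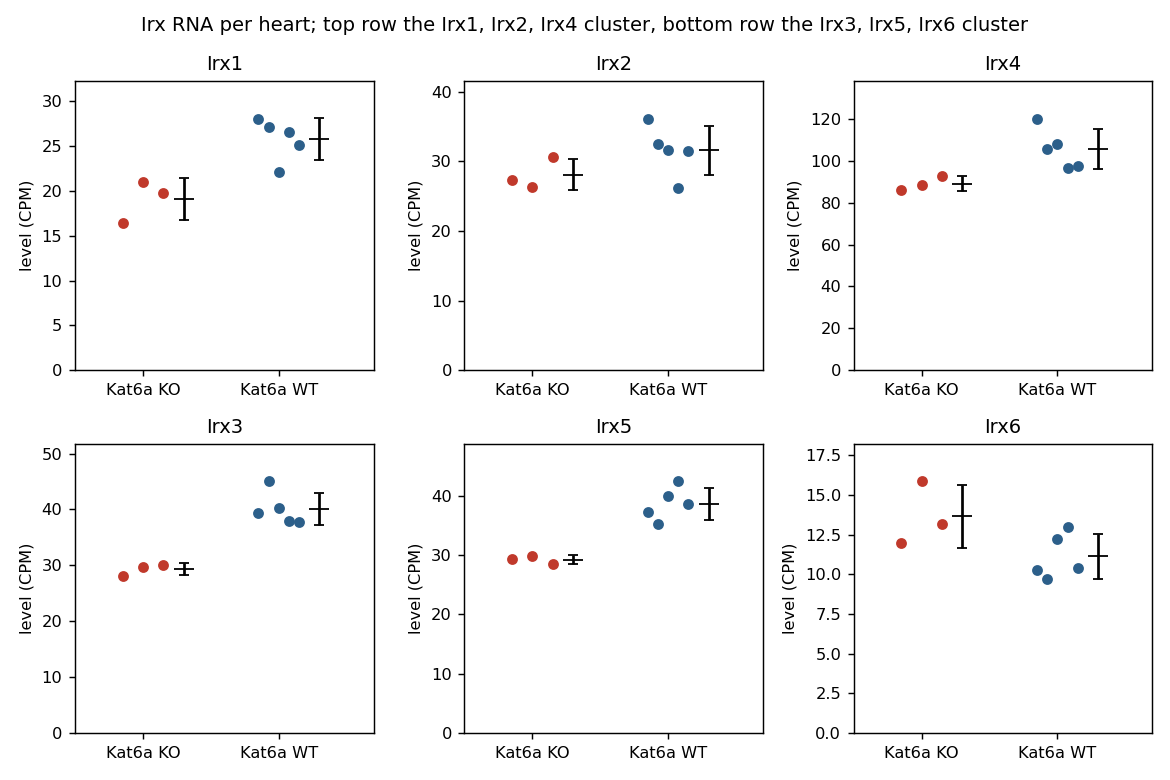
Level of each Irx gene (CPM, vertical axis from 0) in the 3 Kat6a KO and the 5 Kat6a WT hearts, replicates in order within a group; points are hearts and bars the mean ± SD. The points of the groups are apart for Irx1, Irx4, Irx3 and Irx5 and overlap for Irx2 and Irx6.

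Across the family, 5 of the 6 log2 fold changes were below 0 and 1, that of Irx6, was above 0. The median was -0.33, beside -0.00015 over all genes tested. Irx1, Irx3, Irx4 and Irx5 were listed under an adjusted p of 0.05 in the fit over all genes, 4 of 6, all lower, where 2.67% of all genes passed, 1.23% lower and 1.44% higher. The same 4 genes had all Kat6a KO hearts below all Kat6a WT hearts, as did 4.81% of all genes, and 0 of the 6 had them all above, as did 4.77%. As the comparison that gives these counts chose the family, they are no test of it and nothing is read from them. Left out singly, Kat6a KO replicate 1 left Irx3 and Irx5 under that value, 2 of 6, and each of Kat6a KO replicates 2 and 3 and Kat6a WT replicates 1, 2 and 3 left Irx1, Irx3 and Irx5. Without both hearts with Xist RNA, Irx3, Irx4 and Irx5 were under it. In whole hearts, fewer cells of a type that transcribes an Irx gene and less of its RNA per cell cannot be told apart. Epicardial markers also differed: all 4 of Wt1, Upk3b, Tbx18 and Tcf21 were lower in every Kat6a KO heart than in any Kat6a WT heart, with sums of 198.8 to 238.4 CPM in Kat6a KO and 288 to 343.2 CPM in Kat6a WT hearts. The 6 endocardial and endothelial markers summed to 844 to 917.9 CPM in Kat6a KO and 854.1 to 973 CPM in Kat6a WT hearts. Among them Npr3 was lower in every Kat6a KO heart and Pecam1 higher. Neural markers summed to 15.2 to 19.9 CPM in Kat6a KO and 18.7 to 32.7 CPM in Kat6a WT hearts. Most of this was Tubb3, at 12.6 to 16.5 CPM in Kat6a KO and 16.3 to 29.6 CPM in Kat6a WT hearts. Pax6, at most 1.37 CPM, was higher in every Kat6a KO heart than in any Kat6a WT heart. Pou3f2 also had a log2 fold change above 0, and those of Tubb3, Elavl3 and Sox10 were below 0. Body wall markers summed to 7.86 to 8.86 CPM in Kat6a KO and 8.65 to 13.7 CPM in Kat6a WT hearts. Red cell genes summed to 543.9 to 815 CPM in Kat6a KO and 366 to 1465 CPM in Kat6a WT hearts. Liver markers summed to 1.12 to 14.4 CPM in Kat6a KO and 0.338 to 1.45 CPM in Kat6a WT hearts, and the liver gene Afp made up 12.1 CPM of this in Kat6a KO replicate 3. The part of these cell types in the Irx values was not tested.

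Levels were compared between members per kilobase of the deposited gene length. Irx4 was the most abundant member, at 34.2 ± 1.38 CPM per kb in Kat6a KO and 40.6 ± 3.63 CPM per kb in Kat6a WT hearts. Irx3 followed at 12.4 ± 0.456 CPM per kb in Kat6a KO and 17.0 ± 1.24 CPM per kb in Kat6a WT hearts, and Irx5 at 12.2 ± 0.286 CPM per kb in Kat6a KO and 16.1 ± 1.13 CPM per kb in Kat6a WT hearts. The order then went on through Irx2 and Irx1 to Irx6, and it was the same in both genotypes. Irx2 stood at 11.4 ± 0.918 CPM per kb in Kat6a KO and 12.8 ± 1.45 CPM per kb in Kat6a WT hearts, and Irx1 at 9.26 ± 1.16 CPM per kb in Kat6a KO and 12.5 ± 1.13 CPM per kb in Kat6a WT hearts. Irx6 was lowest, at 5.74 ± 0.835 CPM per kb in Kat6a KO and 4.68 ± 0.595 CPM per kb in Kat6a WT hearts. Only the ends of this order were separate in both genotypes: Irx4 was above Irx3, and Irx1 above Irx6, in 8 of 8 hearts. Irx3 and Irx5 could not be ordered beyond their spread, with Irx3 higher in 5 of 8 hearts. Irx5 and Irx2 overlapped in both genotypes, and Irx2 and Irx1 overlapped in Kat6a WT hearts and not in Kat6a KO hearts.

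Ratios of members within a heart do not depend on the scaling of the libraries. They are given, like the fold changes, as a description, and on chromosome 8 they differed wherever Irx6 was the divisor. Irx5 RNA was 2.42, 1.87 and 2.14 times that of Irx6 per kb in Kat6a KO hearts, against 3.60, 3.59, 3.23, 3.23 and 3.66 times in Kat6a WT hearts. The groups did not overlap, with means of 2.14 ± 0.278 in Kat6a KO and 3.46 ± 0.214 in Kat6a WT hearts. The ratio of Irx3 to Irx6 likewise averaged 2.18 ± 0.259 in Kat6a KO and 3.69 ± 0.650 in Kat6a WT hearts, and its groups did not overlap either. Irx3 and Irx5, in contrast, kept a ratio near 1, at 1.02 ± 0.0508 in Kat6a KO and 1.06 ± 0.146 in Kat6a WT hearts, with overlapping groups. Irx6 thus made up 6.74 ± 0.839% of the summed Irx level in Kat6a KO and 4.53 ± 0.689% in Kat6a WT hearts.

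On chromosome 13 the ratios overlapped between genotypes. Irx4 stood at 3.01 ± 0.154 times Irx2 in Kat6a KO and 3.18 ± 0.207 times in Kat6a WT hearts, and at 3.73 ± 0.407 times Irx1 in Kat6a KO and 3.27 ± 0.385 times in Kat6a WT hearts. The ratio of Irx2 to Irx1 was 1.39, 1.05 and 1.30 in Kat6a KO hearts, against 1.08, 1.00, 1.20, 0.823 and 1.05 in Kat6a WT hearts. Its higher mean in Kat6a KO hearts came with shared values, since Kat6a KO replicate 2 lay among the Kat6a WT hearts.

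**Figure D2:**
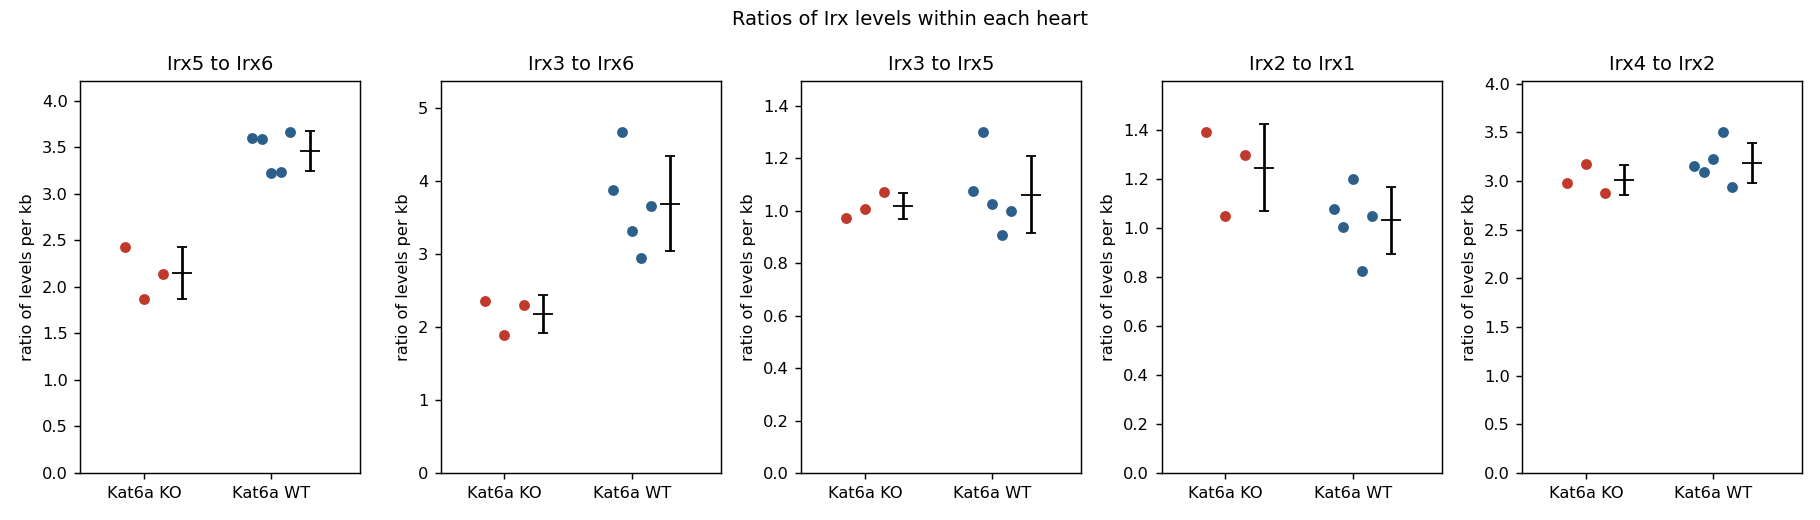
Ratios of Irx levels per kb within each heart (vertical axes from 0) in Kat6a KO and Kat6a WT hearts; points are hearts and bars the mean ± SD. The ratios to Irx6 separate the genotypes, those of Irx3 to Irx5, Irx2 to Irx1 and Irx4 to Irx2 overlap.

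Taken as clusters, Irx1, Irx2 and Irx4 summed to 52.0, 54.9 and 57.8 CPM per kb in Kat6a KO hearts, against 74.4, 67.0, 65.0, 60.7 and 62.5 CPM per kb in Kat6a WT hearts. Irx3, Irx5 and Irx6 summed to 29.1, 31.6 and 30.1 CPM per kb in Kat6a KO hearts, against 36.4, 37.8, 38.8, 39.2 and 36.4 CPM per kb in Kat6a WT hearts. Both sums were lower in every Kat6a KO heart, and their ratio overlapped between genotypes, at 1.81 ± 0.0938 in Kat6a KO and 1.75 ± 0.182 in Kat6a WT hearts. The summed level of all 6 genes was 85.2 ± 3.57 CPM per kb in Kat6a KO and 104 ± 4.75 CPM per kb in Kat6a WT hearts, and Irx4 held 40.2 ± 0.804% of it in Kat6a KO and 39.1 ± 1.74% in Kat6a WT hearts.

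Whether members vary together from heart to heart is a question that the genotype difference did not choose, and it was asked of the deviations from the mean of each genotype over the 8 hearts. Irx5 and Irx6 deviated together, with Pearson's r = 0.80 (exact permutation p = 0.00972, Benjamini-Hochberg adjusted p = 0.146 over the 15 pairs) and Spearman's rho = 0.81 (exact permutation p = 0.0361, adjusted p = 0.181). Irx2 and Irx4 had r = 0.83 (exact permutation p = 0.0403, adjusted p = 0.302) and rho = 0.88 (exact permutation p = 0.00833, adjusted p = 0.125). Neither pair passed after adjustment, and all tests were two-sided with hearts permuted within genotypes over 720 orders. Without the 2 hearts farthest from the median of the first-named gene of a pair, r was 0.69 for Irx5 with Irx6 and 0.52 for Irx2 with Irx4. Hearts far out for the second-named gene alone were kept in. Kat6a WT replicate 4 was the highest Kat6a WT heart for Irx5 and Irx6 and the lowest for Irx2 and Irx4. The red cell gene Hba-a1 was also highest there, at 304, 308, 697, 1210 and 622 CPM in Kat6a WT replicates 1 to 5. The part of blood content, or of other differences in cell types between hearts, in these r values was not tested. Irx3 and Irx5, the pair with the most alike fold changes on chromosome 8, went opposite ways within genotypes, at r = -0.71 (exact permutation p = 0.132, adjusted p = 0.396) and rho = -0.45 (exact permutation p = 0.351, adjusted p = 0.527). It rested on few hearts: r was -0.50 without the 2 farthest hearts and -0.27 without Kat6a WT replicate 2. Across the clusters, Irx2 and Irx5 had r = -0.77 (exact permutation p = 0.0667, adjusted p = 0.333) and rho = -0.79 (exact permutation p = 0.0278, adjusted p = 0.181), with r = -0.51 without the 2 farthest hearts. Of the 15 pairs, 0 passed the adjusted threshold by Pearson's r, and 2 had an unadjusted p below 0.05.

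**Figure D3:**
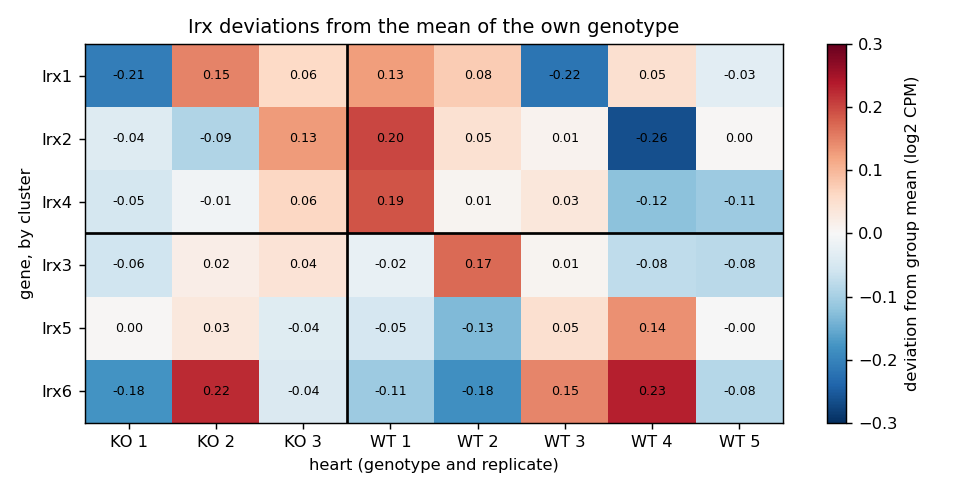
Deviation of each Irx gene (rows, by cluster) from the mean log2 CPM of its genotype in each heart (columns, Kat6a KO left of Kat6a WT); red is above and blue below the mean. Kat6a WT replicate 4 is at -0.26 for Irx2 and 0.23 for Irx6.

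The genes most alike to each member in these deviations were ranked by r among 11607 genes, as a description over 8 hearts that share depth and scaling. For Irx1 they were Mrpl1, Pias4 and Prrt4 (r = 0.98, 0.98 and 0.96). For Irx2 they were Med10, AF357359 and Dad1 (r = 0.98, 0.97 and 0.96), and for Irx4 Hnrnpf, Vdac2 and Spag7 (r = 0.99, 0.98 and 0.97). For Irx3 they were Mpv17, Plpp7 and Znrf2 (r = 0.98, 0.98 and 0.97), and for Irx5 Gclm, Riox1 and Jak2 (r = 0.99, 0.99 and 0.98). For Irx6, Nubp2 and Gclc are given (r = 0.96 and 0.95). No Irx gene was among the 3 most alike to another. The highest r among 11607 genes over 8 hearts can be this high by chance, and none of these r values was tested. Of the genes named here Gclc passed the test between genotypes, at -0.34 ± 0.08 on the log2 scale (edgeR adjusted p = 0.0201), a call lost without Kat6a KO replicate 1 or 3 or Kat6a WT replicate 3 (adjusted p = 0.16, 0.105 and 0.0726), without both hearts with Xist RNA (0.0634) and with a replicate block (0.153).

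The genes around the clusters were read in the same fit. Within 1000 kb of the cluster ends lie 43 other genes, of which 22 had enough reads, and 0 of the 22 passed by edgeR or by DESeq2, with 2 at an unadjusted p below 0.05 in edgeR. So few genes give no contrast with the 2.67% that passed over all genes. Their median log2 fold change was 0.03 around Irx1, Irx2 and Irx4 (14 genes, -0.58 to 0.34) and 0.10 around Irx3, Irx5 and Irx6 (8 genes, -0.09 to 0.13). Fto, an RNA demethylase gene 130 kb from Irx3 whose introns hold enhancers of Irx3, had 169 ± 2.55 CPM in Kat6a KO and 168 ± 6.24 CPM in Kat6a WT hearts. Mmp2, a matrix protease gene 146 kb beyond Irx6, was at 0.12 ± 0.08 (edgeR adjusted p = 0.564), and it passed when Kat6a WT replicate 2 was left out (0.19, adjusted p = 0.0494). Ndufs6, a subunit gene of mitochondrial complex I 50.3 kb beyond Irx4, was at 0.05 ± 0.11 (edgeR adjusted p = 0.89). The widest difference was that of Nkd2, an inhibitor of Wnt signalling chosen after its value was seen, at -0.58 ± 0.21 (edgeR adjusted p = 0.179). Between the members, the noncoding gene Gm20554, which overlaps the RefSeq span of Irx2 and shares no exon base with Irx2 in GENCODE, had 3.74 ± 0.577 CPM in Kat6a KO and 3.14 ± 0.544 CPM in Kat6a WT hearts, and Crnde next to Irx5 had 6.25 ± 1.02 CPM in Kat6a KO and 6.20 ± 1.42 CPM in Kat6a WT hearts.

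**Figure D4:**
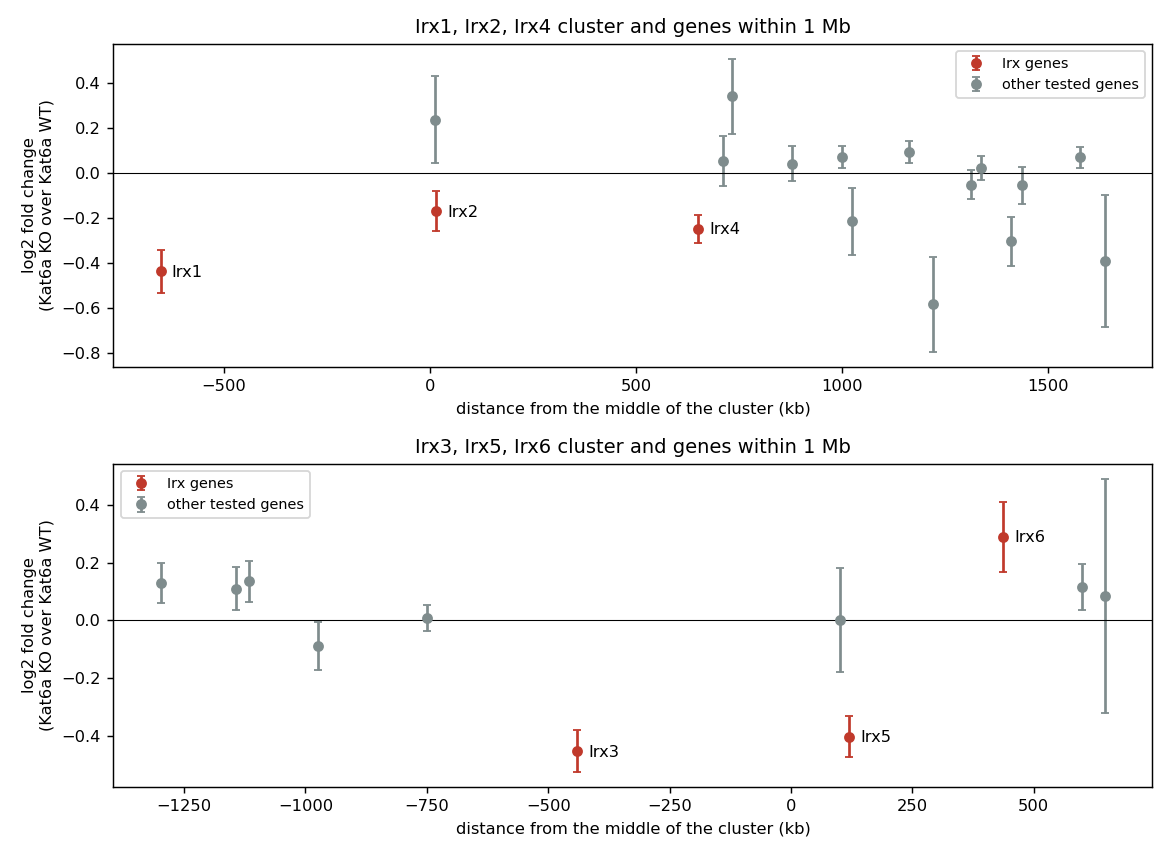
Log2 fold change (Kat6a KO over Kat6a WT, bars ± SE) of the Irx genes (red) and of other tested genes within 1000 kb of a cluster (grey) against distance from the middle of the cluster in kb. Irx genes other than Irx6 lie below 0, in a family chosen by its fold changes. Of the 22 grey points 15 lie above 0 and 0 passed, beside a median of -0.00015 over all genes tested.

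The RefSeq promoter table of GRCm38.p6 matched 3 of the 6 members, Irx2, Irx3 and Irx4. The stretches just upstream of Irx2 and Irx4, the pair of chromosome 13 with the highest r, are shown with CCAAT and the GC box GGGCGG in capitals, searched on both strands. RefSeq also lists predicted models of both genes that start farther upstream.
Irx2 at chr13:72628570-72628819, plus strand: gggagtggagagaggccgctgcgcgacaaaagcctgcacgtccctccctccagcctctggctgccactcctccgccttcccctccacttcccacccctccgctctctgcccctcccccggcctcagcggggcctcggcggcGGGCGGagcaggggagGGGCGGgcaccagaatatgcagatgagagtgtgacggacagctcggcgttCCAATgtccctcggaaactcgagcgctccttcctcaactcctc
Irx4 at chr13:73260247-73260478, plus strand: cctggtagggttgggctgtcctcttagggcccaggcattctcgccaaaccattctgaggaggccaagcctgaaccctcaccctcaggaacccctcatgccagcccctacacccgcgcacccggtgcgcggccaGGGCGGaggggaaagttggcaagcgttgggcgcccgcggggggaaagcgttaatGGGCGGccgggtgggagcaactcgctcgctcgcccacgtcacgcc
In the 300-base promoters, each of the pair holds 2 GC boxes, a motif present in 35.7% of the 32851 promoters of the table, and Irx2 holds 1 CCAAT, present in 37.4%. The Irx3 window holds neither. On the minus strand, Irx3 starts at 91802067 in GENCODE and at 91801654 in RefSeq, so this window lies mostly inside the GENCODE gene. Its motifs and GC content are therefore not those of a stretch upstream of the GENCODE start. TATAAA, found in 13.6% of promoters, is in 0 of the 3 windows. Their GC content is 69.0% for Irx2, 70.7% for Irx4 and 56.0% for Irx3, beside a median of 52.7%.

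Genes of heart regulation, of the chambers and of conduction were read from lists chosen with results of these data known. They are set beside the 2.67% of all genes that passed and their median near 0. A place on a list is no claim that a gene acts with Irx factors. Among 14 cardiac regulators, 0 rose and 3 fell, with a list median of -0.11. Hand1 and Hand2, basic helix-loop-helix factors of the ventricles, fell by 1.04 ± 0.09 and 0.22 ± 0.06 on the log2 scale (edgeR adjusted p = 1.47e-05 and 0.0446), and Gata4, a zinc finger factor of heart muscle, fell by 0.19 ± 0.04 (edgeR adjusted p = 0.0199). Irx4 RNA is known to be reduced in mouse embryos without Hand2 or Nkx2-5, and Nkx2-5 itself was at -0.12 ± 0.05 here (edgeR adjusted p = 0.219). Hand2 did not pass without Kat6a KO replicate 1, 2 or 3 or Kat6a WT replicate 2, 4 or 5 (adjusted p = 0.0664, 0.208, 0.103, 0.0727, 0.0693 and 0.0953), nor Gata4 without Kat6a KO replicate 1 or 2 (0.129 and 0.0785). Of 14 ventricular and atrial genes 1 rose and 0 fell (median 0.09): the ventricular myosin light chain gene Myl3, at 2043 ± 83.7 CPM in Kat6a KO and 1697 ± 130.1 CPM in Kat6a WT hearts (edgeR adjusted p = 0.0105, and 0.105 and 0.0687 without Kat6a KO replicate 1 or 3).

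Of 19 trabecular, conduction and repolarisation genes 1 rose and 0 fell (median 0.06). It was Etv1, an ETS factor of fast conduction muscle, at 19.2 ± 0.486 CPM in Kat6a KO and 14.9 ± 0.827 CPM in Kat6a WT hearts (edgeR adjusted p = 0.0219). It did not pass without any single Kat6a KO heart or without Kat6a WT replicate 3 (adjusted p = 0.124, 0.058, 0.0847 and 0.0722). Named for their link to Irx3 and Irx5 and not by the rule, the connexin gene Gja5 was at 0.06 ± 0.07 (edgeR adjusted p = 0.787) and Kcnd2 at 0.22 ± 0.18 (edgeR adjusted p = 0.648), and 0.10 to 0.32 on leaving out single hearts.

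**Figure D5:**
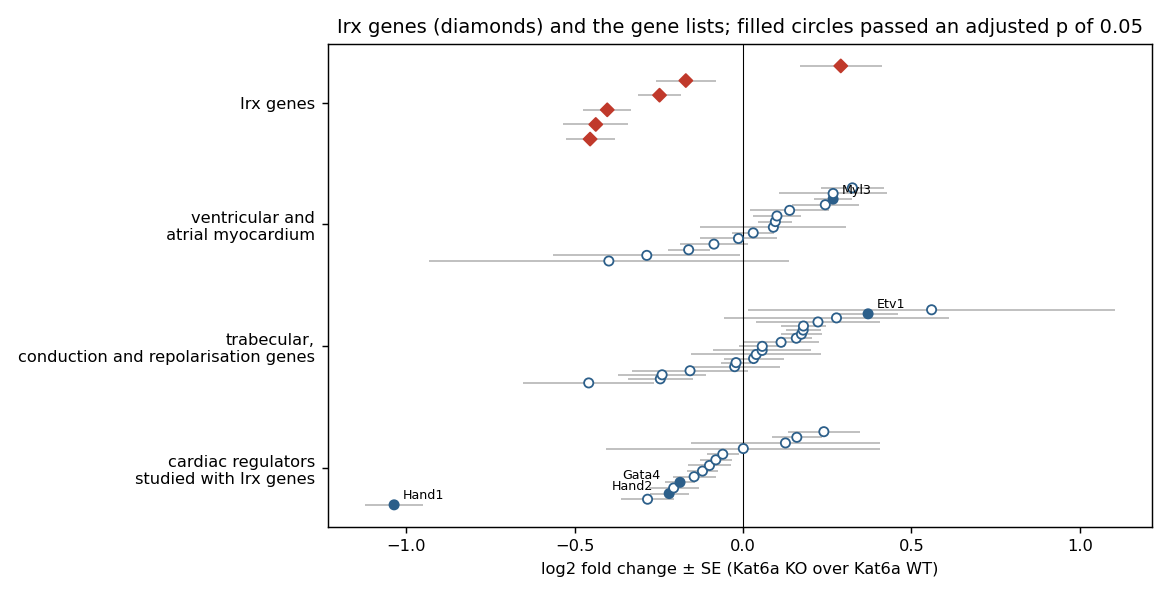
Log2 fold change ± SE (Kat6a KO over Kat6a WT) of the 6 Irx genes (red diamonds, no test) and of the tested genes of 3 lists (circles); filled circles passed an edgeR adjusted p of 0.05. Of the filled circles only Hand1, at -1.04, lies farther below 0 than the lowest Irx gene.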

How the data were processed

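The authors isolated total RNA from E10.5 hearts with a column kit for small samples and made libraries with a stranded kit, per the labels' protocols. Reads were demultiplexed with bcl2fastq and counted with featureCounts on mm10, per the submitters' processing notes; the sources used here do not state the versions, aligner, annotation or strand setting. The authors deposited raw counts, whole numbers for 27179 Entrez gene IDs in 8 hearts, with a gene length; 8 files of single hearts held the same counts as the table. Symbols and positions came from the RefSeq table of GRCm38.p6 (25275 IDs matched; the 1904 others held 1.05% of counts).

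The 6 members, the gene lists and the tests were chosen with earlier results of these data known. Genes were filtered with filterByExpr, scaled by trimmed mean of M values and tested with edgeR 4.0.16 (quasi-likelihood, robust, Kat6a KO against Kat6a WT, Benjamini-Hochberg over 15086 genes, threshold 0.05), with limma 3.58.1, DESeq2 1.42.0 and R 4.3.3. SE is the absolute log2 fold change over the root of F. The biological coefficient of variation was 9.10%. Deviations used log2 CPM with a prior count of 2. Named genes are the Irx genes, Kat6a, list members past the threshold or, with none, the 2 of smallest p, the nearest tested neighbours, and for each Irx gene the 3 highest r among autosomal genes averaging at least 1 on the log2 CPM scale. Some genes, and 1 list, that these rules select are not reported here. Alternatives were DESeq2, other scaling and filters, no robust moderation, and leaving out each heart. The 2 hearts with Xist RNA were also left out, without and with a replicate block.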

Additional observations from a re-analysis of the deposited data

How the results depend on the processing

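Over 16 alternatives the log2 fold changes kept their sign for all 6 members: -0.52 to -0.34 for Irx1, -0.25 to -0.12 for Irx2, -0.50 to -0.41 for Irx3, -0.32 to -0.20 for Irx4, -0.43 to -0.36 for Irx5 and 0.17 to 0.38 for Irx6. The 4 Irx genes under the threshold were the same under DESeq2, other scaling and other filters. Without robust moderation they were Irx1, Irx3 and Irx5, with 339 genes in all, and Hand2 did not pass (edgeR adjusted p = 0.085). As the genotype difference chose the family, the calls of Irx genes in any setting are a description and no test of it. Leaving out single hearts gave 2 to 4 Irx genes, 194 to 496 genes in all against 403 (103 to 300 higher and 91 to 200 lower, against 217 and 186), 1 to 4 cardiac regulators, 0 to 1 ventricular and atrial genes, 0 to 2 trabecular genes and 0 to 1 neighbours. DESeq2 called 580 genes in all, 290 higher and 290 lower, with 4 cardiac regulators, 2 ventricular and atrial and 2 trabecular genes. Without the hearts with Xist RNA, 116 genes were lower and 1 regulator passed; Myl3 did not (0.0653), nor did Hand2 (0.146) or Gata4 (0.0961), while Stard10 did. Same-numbered hearts did not deviate together (r = 0.07, -0.12 and -0.05 for numbers 1 to 3). Hearts of unlike numbers had r of -0.044 to 0.075. With 3 Kat6a KO hearts these values cannot settle whether the numbers pair them. The replicate block was fitted on hearts of replicates 1 to 3, the same 6 hearts that remain without the Xist hearts. Moves seen in both settings thus rest on the same set of hearts. With the block 186 genes passed (110 higher, 76 lower), against 281 in these hearts without it. The 186 held 2 Irx genes (Irx3 and Irx4), 2 ventricular and atrial genes, 0 trabecular genes and 1 regulator. The ventricular and atrial genes were Nr2f2 and Stard10. Myl3 (0.181), Etv1 (0.0887), Hand2 (0.267) and Gata4 (0.238) did not pass with the block. Ndufs6 changed sign with the block (-0.028), without the Xist hearts (-0.017) and on leaving out single hearts (-0.10 to 0.18), as did Fto (-0.016 with the block, -0.016 without the Xist hearts, -0.0075 to 0.028 on leaving out single hearts), and Gja5 on leaving out single hearts (-0.038 to 0.11). The causes of these moves were not tested. The r of Irx5 with Irx6 ran from 0.69 to 0.92 on leaving out single hearts, that of Irx2 with Irx4 from 0.72 to 0.94 and that of Irx3 with Irx5 from -0.78 to -0.27, and 0 pairs passed in any of them. Depth was lowest for Irx6, with 203 to 422 counts a heart.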
